A study of Homo sapiens with 6 samples.

Results

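CBFB and MYH11 are the 2 genes joined by the inversion of chromosome 16, inv(16), that the leukemia line ME-1 carries, and CBFA2T3, CBFA2T2 and RUNX1T1 make up the ETO family of corepressor genes. Their loci were described through every peak that the 4 deposited peak lists placed in 5 windows of the hg19 genome, 1 window for each gene. The windows were chr16:67.01-67.19 Mb for CBFB, chr16:15.75-16.00 Mb for MYH11, chr16:88.90-89.09 Mb for CBFA2T3, chr20:32.03-32.29 Mb for CBFA2T2 and chr8:92.92-93.17 Mb for RUNX1T1. They held 125 of the 145457 peaks of the 4 lists. Of these, 15 were RUNX1 sites after AI-10-49, 5 were RUNX1 sites in DMSO, 60 were H3K27ac regions after AI-10-49 and 45 were H3K27ac regions in DMSO.

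ME-1 is an established human cell line. All groups were ME-1 cultures, given either AI-10-49 at 1 µM for 6 h or the solvent DMSO for 6 h, so the DMSO cells carry the same inversion. Each group is 1 ChIP-seq library of 1 line, for RUNX1 or for the histone mark H3K27ac, and no difference between conditions can be set against a replicate spread. No p-value is given. Intervals are exact, at 95%, and cover counting error only.

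The fusion that inv(16) makes, CBFβ-SMMHC, keeps the RUNX-binding part of CBFβ and adds the tail of a smooth-muscle myosin. CBFβ is the normal partner that strengthens DNA binding by RUNX1, a regulator of blood formation, and AI-10-49 inhibits the binding of the fusion protein to RUNX1. The ETO proteins do not bind DNA themselves; they bring co-repressors and histone deacetylases to transcription factors, and RUNX1T1 and CBFA2T3 are known as partners of RUNX1 in other leukemia fusions. H3K27ac marks active promoters and enhancers.

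The libraries held 31.5 M reads for RUNX1 after AI-10-49 against 33.8 M in DMSO, and 37.0 M reads for H3K27ac after AI-10-49 against 35.7 M in DMSO, as recovered from the lists. Levels below are fragments over a peak's summit per M reads of its library. Fragment length was not measured and was taken as the width of the narrowest peak of a list. By this measure fragments were longer after AI-10-49 by 1.13 times (RUNX1) and 1.09 times (H3K27ac), which bears on every ratio by that factor. Calling is also limited by the smaller of a ChIP and its control library, and this was smaller for AI-10-49 than for DMSO, by a factor of 0.816 for RUNX1 and 0.812 for H3K27ac. A level averages over all cells and over every copy of the chromosome, so the inverted and the normal copy of chromosome 16 cannot be told apart. No hg19 gene annotation was at hand, and a peak is therefore placed by position in a window and not assigned to a promoter, exon or intron.

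The 5 loci differed in how they were occupied. CBFB and CBFA2T3 carried RUNX1 in both conditions, MYH11 and CBFA2T2 had RUNX1 sites in the AI-10-49 list only, which is the longer one, and the RUNX1T1 window held no peak in any list. By window, RUNX1 sites after AI-10-49 and in DMSO numbered 3 and 2 (CBFB), 1 and 0 (MYH11), 8 and 3 (CBFA2T3), 3 and 0 (CBFA2T2), and 0 and 0 (RUNX1T1). Over the whole genome the lists held 10319 sites after AI-10-49 and 1701 in DMSO, a larger difference than 15 against 5. With the AI-10-49 list cut to its 1701 sites of highest −log10 q, the windows held 6 sites after AI-10-49 and 5 in DMSO. These were 1 and 2 at CBFB, 1 and 0 at MYH11 and 4 and 3 at CBFA2T3, and no CBFA2T2 site was left. Of the 15 sites after AI-10-49, 11 overlapped no DMSO site (73.3%, 44.9 to 92.2), near the 85.1% of all AI-10-49 sites. For every 100 H3K27ac regions of the same condition, the windows held 25 RUNX1 sites after AI-10-49 and 11.1 in DMSO, where the whole lists held 15.6 and 2.54. The median level of the sites was 1.68 fragments per M reads after AI-10-49 and 0.622 in DMSO, with medians of 1.05 and 0.918 over the whole lists.

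**Figure D1:**
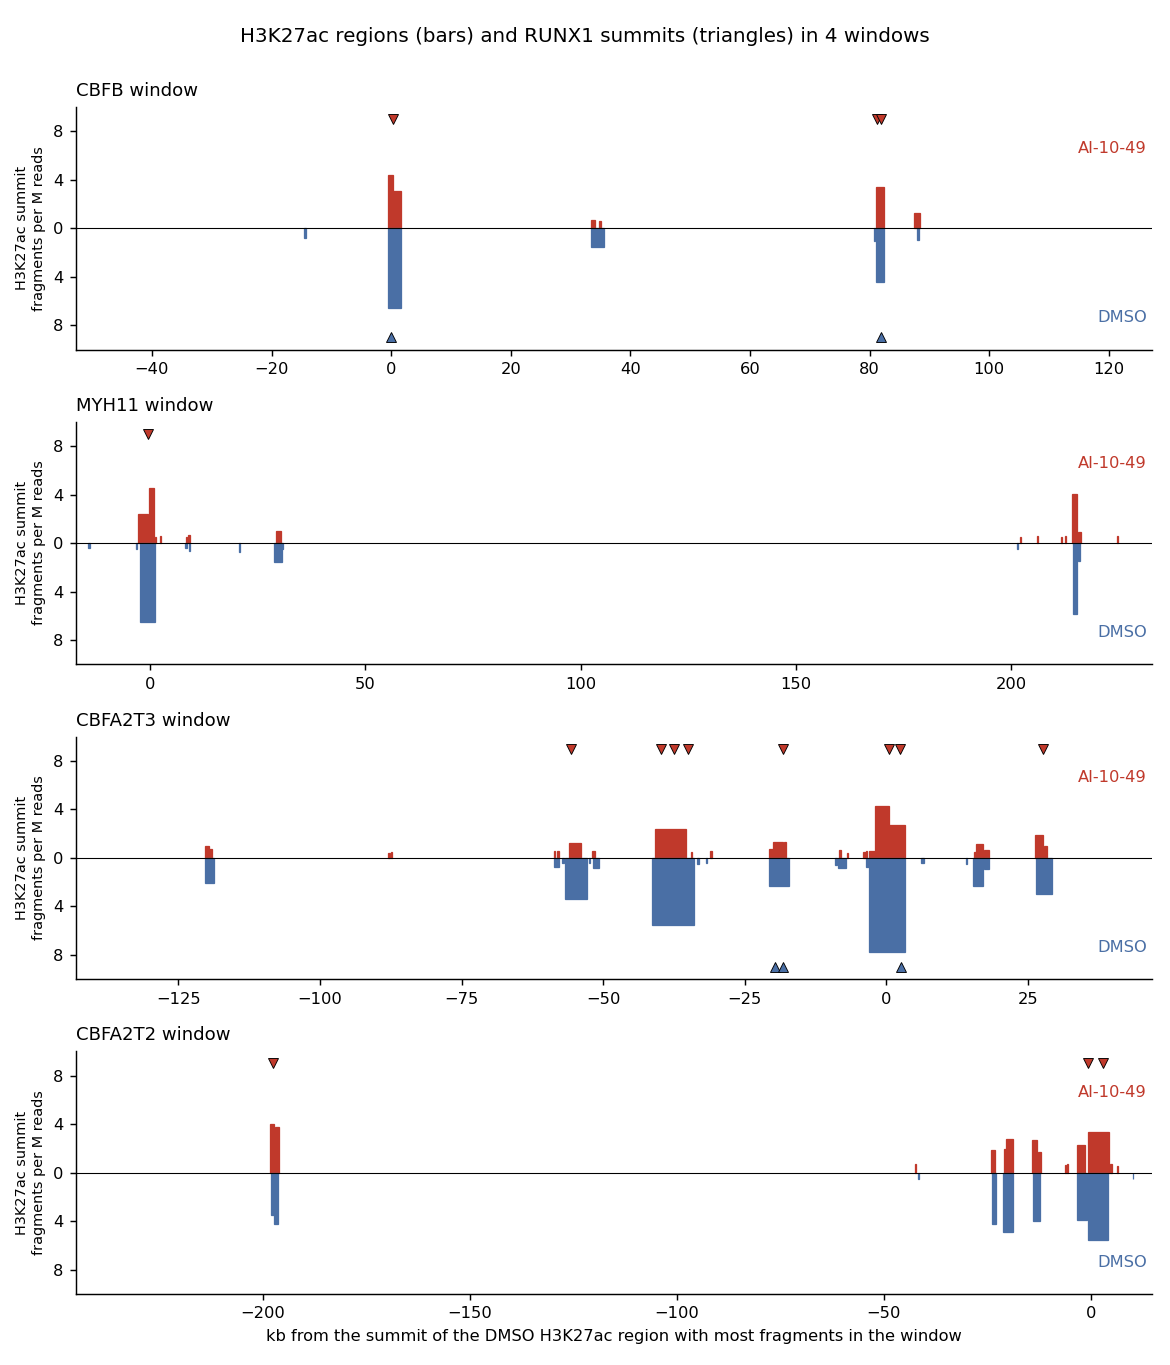
H3K27ac regions and RUNX1 summits in 4 windows, with AI-10-49 above the line and DMSO below it. Bars span a region and reach to its H3K27ac summit fragments per M reads, triangles mark RUNX1 summits, and the x axis is the distance in kb from the summit of the DMSO H3K27ac region with most fragments. The CBFA2T3 window holds 8 RUNX1 summits after AI-10-49 and 3 in DMSO, and the MYH11 and CBFA2T2 windows hold RUNX1 summits in AI-10-49 only.

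CBFB encodes the shared subunit of the RUNX factors and gives the fusion gene its front part. Its window contained 2 strongly acetylated regions, and each of them held RUNX1 in both conditions. The first site, chr16:67062794-67063184, had 53 summit fragments after AI-10-49, or 1.68 per M reads (1.26 to 2.20). The DMSO site it overlapped, chr16:67062690-67062973, had 21 fragments, or 0.622 per M reads (0.385 to 0.95). The level after AI-10-49 was 2.70 times that in DMSO (1.60 to 4.72), and the intervals of the levels did not meet. The second site was chr16:67144427-67144778, with 80 fragments and 2.54 per M reads (2.01 to 3.16) after AI-10-49. Its DMSO counterpart, chr16:67144479-67144691, had 40 fragments and 1.18 per M reads (0.846 to 1.61), which gives a ratio of 2.14 (1.45 to 3.22). The third site, chr16:67143755-67143941, was listed after AI-10-49 only, with 35 fragments and 1.11 per M reads, 0.537 kb from the nearest DMSO site.

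H3K27ac at CBFB was lower after AI-10-49 in 3 of 4 regions found in both lists, where 64.4% of all paired regions of the lists were lower. The strongest, chr16:67062132-67064365 in DMSO, held 164 fragments at the summit after AI-10-49 and 235 in DMSO, or 4.43 and 6.58 per M reads, a ratio of 0.673 (0.548 to 0.826). By the authors' fold enrichment the difference was larger, with 13.7 after AI-10-49 and 44.3 in DMSO, a ratio of 0.309. Fold enrichment also depends on the local background, which was 8 after AI-10-49 and 4.07 in DMSO. The ChIP counts were scaled in it too, by 0.745 and 0.952, so this difference is not one of summit fragments alone. In the region around the second RUNX1 site, chr16:67143793-67145197, levels were 3.41 after AI-10-49 and 4.43 in DMSO, a ratio of 0.770 (0.604 to 0.979). Between these lay chr16:67096065-67098299, which held no RUNX1 site and had 0.649 fragments per M reads after AI-10-49 and 1.54 in DMSO. Its ratio, 0.421 (0.249 to 0.692), was the lowest of the window. The fourth region, chr16:67150554-67150996, had 1.27 per M reads after AI-10-49 and 0.925 in DMSO, and its interval (0.862 to 2.21) included equality; by fold enrichment it was lower, at 7.21 after AI-10-49 and 8.79 in DMSO. In the gene table of another build, GRCh38.p14, CBFB covers 71.9 kb and is followed by PHAF1 and B3GNT9. Parts of the 180 kb window thus belong to its neighbours, and to which gene each RUNX1 site belongs is not given here.

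MYH11 encodes the smooth-muscle myosin heavy chain and gives the fusion gene its tail. Its window held a single RUNX1 site, chr16:15766586-15767020, which was among the stronger ones after AI-10-49 and absent from the DMSO list. It had 100 summit fragments, or 3.17 per M reads (2.58 to 3.86), ranked 679 of 10319 sites by −log10 q, and lay 389 kb from the nearest DMSO site. The site fell inside the most acetylated region of the window, chr16:15764841-15768444. Its acetylation level was 6.53 in DMSO and 4.52 in its AI-10-49 partner, chr16:15766881-15768205, a ratio of 0.692 (0.564 to 0.847). The RUNX1 summit lay in another AI-10-49 region, chr16:15764530-15766827, with 2.38 per M reads. A second strong region at the far end of the window, chr16:15981543-15982552, held no RUNX1 site and had 4.03 per M reads after AI-10-49 and 5.83 in DMSO. Its ratio was much the same, 0.691 (0.556 to 0.857). The weaker chr16:15796097-15797833 and chr16:15982701-15983242 had ratios of 0.609 and 0.637, and the remaining regions of both lists, with 15 to 23 fragments, had ratios of 1.09 and 0.965 whose intervals included equality. Between positions 15798107 and 15968649 neither list had an H3K27ac region. MYH11 lies between NDE1, which overlaps it, and CEP20 and ABCC1 in the GRCh38.p14 table, and which of these genes the acetylated regions belong to is not given here.

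CBFA2T3, also named ETO2 or MTG16, encodes a corepressor of blood stem and progenitor cells and had the most RUNX1 sites of the 5 windows. The 8 sites after AI-10-49 spread over 83.4 kb, and each overlapped an H3K27ac region of the DMSO list. The foremost was chr16:89044866-89045853, with 166 summit fragments after AI-10-49, or 5.27 per M reads (4.50 to 6.13). It ranked 30 of 10319 sites by −log10 q, with a fold enrichment of 39.5 over local background in the authors' own values. The DMSO site inside it, chr16:89045353-89045700, had 52 fragments, or 1.54 per M reads (1.15 to 2.02), and was also the strongest DMSO site of the 5 windows. The ratio was 3.42 (2.49 to 4.77).

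The second shared CBFA2T3 site had the largest relative difference of the 4 sites found in both lists. At chr16:89024523-89025001 it held 84 fragments and 2.67 per M reads (2.13 to 3.30) after AI-10-49. The DMSO list had 18 fragments and 0.533 per M reads (0.316 to 0.842) at chr16:89024584-89024859. The ratio was 5.0 (2.98 to 8.84), and the summits, at 89024773 after AI-10-49 and 89024771 in DMSO, nearly coincided. All 4 shared sites, in the CBFB and CBFA2T3 windows, had at least 1.5 times the DMSO level. So did 76.0% of all shared RUNX1 sites, whose median ratio was 2.1. The third DMSO site, chr16:89023319-89023486 with 19 fragments, overlapped no AI-10-49 site and lay 1.04 kb from one.

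Of the 6 CBFA2T3 sites listed after AI-10-49 only, 2 had levels near that of the weaker shared site (2.67) and below that of the foremost (5.27). One was chr16:89003014-89003600, with 76 fragments, 2.41 per M reads (1.90 to 3.02) and a rank of 673, lying 19.7 kb from the nearest DMSO site. The other was chr16:89043336-89044092, with 77 fragments and 2.44 per M reads (1.93 to 3.05), lying 1.26 kb from the strongest DMSO site. The others had fewer fragments than the median of the list, 33. chr16:89070329-89070796 had 29 fragments, chr16:88987356-88987608 had 26, chr16:89005364-89005644 had 19 and chr16:89007920-89008238 had 13, where the fewest in the list was 12.

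**Figure D2:**
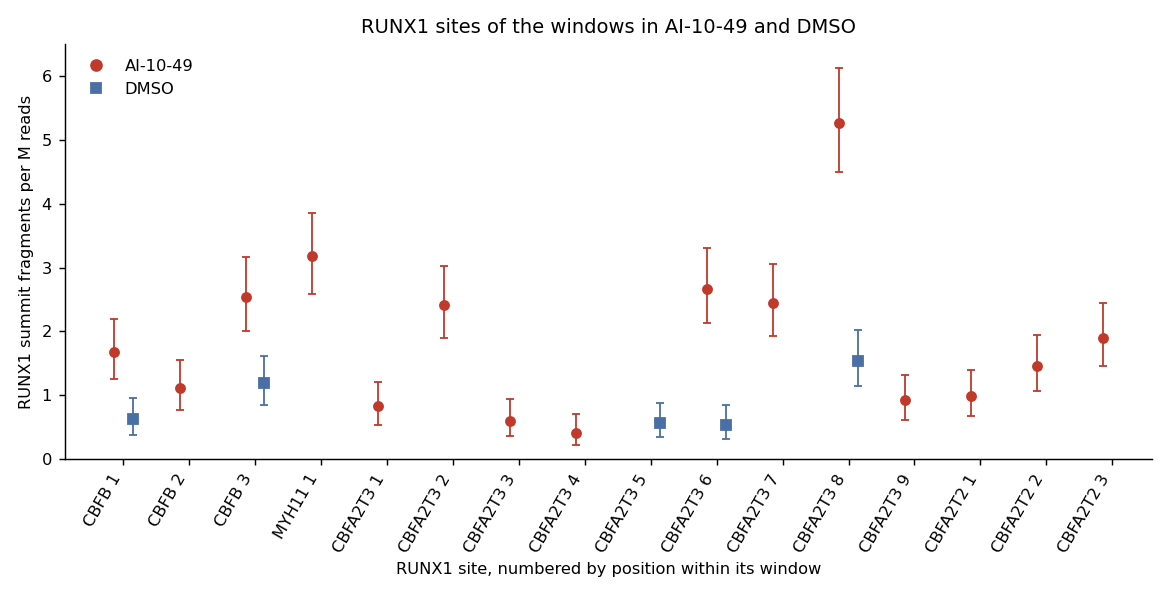
Summit fragments per M reads (y axis) at each RUNX1 site, numbered by position within its window (x axis), with AI-10-49 as circles and DMSO as squares. Bars are exact 95% Poisson intervals, and a missing symbol means that the list has no peak there. All 4 sites with both symbols are higher in AI-10-49, from 1.68 against 0.622 at CBFB 1 to 5.27 against 1.54 at CBFA2T3 8.

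Acetylation at CBFA2T3 was lower after AI-10-49 in each of the 12 regions found in both lists, where 64.4% of all paired regions were lower, with ratios of 0.364 to 0.751 and a median of 0.579. The interval lay below 1 in 7 of them and included equality in 5, and by the authors' fold enrichment 10 of the 12 were lower. Covered length in the window was 25.2 kb after AI-10-49 and 34.3 kb in DMSO, a ratio of 0.735. The ratio of covered length was 0.778 at CBFB, 1.04 at MYH11 and 1.05 at CBFA2T2, and 0.908 over the whole lists. The widest region, chr16:89001597-89009123, contained the RUNX1 sites at 89003014, 89005364 and 89007920. It had 2.38 fragments per M reads after AI-10-49 and 5.52 in DMSO, a ratio of 0.431 (0.331 to 0.557). The DMSO region with most fragments, chr16:89040031-89046371, contained the foremost RUNX1 site. It had 7.76 in DMSO, and its AI-10-49 partner, chr16:89041065-89043521, had 4.27, a ratio of 0.550 (0.450 to 0.672). That partner did not hold the foremost site, which lay in another AI-10-49 region, chr16:89043576-89046239, with 2.70 per M reads. The lowest ratio, 0.364 (0.253 to 0.515), was that of chr16:88986333-88990216, where levels were 1.24 after AI-10-49 and 3.42 in DMSO. Regions chr16:89022357-89025925 (1.27 and 2.35) and chr16:89069380-89072294 (1.84 and 3.03) also held RUNX1 sites and had ratios of 0.540 and 0.608. At the shared CBFA2T3 sites RUNX1 levels were thus higher, and the H3K27ac summit levels of the regions around them lower, after AI-10-49. At the leading site and region the authors' fold enrichments, which are not a separate measurement because the levels were recovered from them, had the same directions. For RUNX1 they were 39.5 after AI-10-49 and 10 in DMSO. For H3K27ac they were 22.0 after AI-10-49 and 30.5 in DMSO in the paired regions, and 19.2 in the AI-10-49 region that held the site.

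The promoter table of RefSeq (GRCh38.p14) matched 2 of the 5 members, CBFA2T3 and CBFA2T2, and not CBFB, MYH11 or the remaining ETO gene. They are shown because these are the ETO genes with RUNX1 sites in their windows, as the 250 bases before each listed start, 5′ to 3′ on the strand of the gene (minus on chromosome 16 for CBFA2T3, plus on chromosome 20 for CBFA2T2). Capitals would mark the RUNX core motif, searched as TGTGGT or TGCGGT on either strand, and neither sequence has any.
CBFA2T3: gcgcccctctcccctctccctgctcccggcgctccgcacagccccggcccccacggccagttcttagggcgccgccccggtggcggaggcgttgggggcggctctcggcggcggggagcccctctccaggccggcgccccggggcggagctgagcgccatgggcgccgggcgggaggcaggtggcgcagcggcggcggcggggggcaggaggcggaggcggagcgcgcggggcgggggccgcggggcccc
CBFA2T2: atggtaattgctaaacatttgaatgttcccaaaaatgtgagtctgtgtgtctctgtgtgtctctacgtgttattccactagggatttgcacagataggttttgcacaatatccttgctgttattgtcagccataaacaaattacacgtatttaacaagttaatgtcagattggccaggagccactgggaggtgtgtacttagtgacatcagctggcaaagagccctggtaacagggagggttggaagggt

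The CBFA2T3 stretch is 84.4% G and C and holds 36 CG dinucleotides, and the CBFA2T2 stretch is 42.8% G and C with 2. The median G and C content of the same 250 bases was 58.0% over the 35116 promoters of the table, and 16.3% of them had a motif match. The table is of another build than the peaks, so no peak was set on these sequences, and nothing on RUNX1 binding follows from the missing match.

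CBFA2T2, also named MTGR1, encodes the widely expressed ETO family member. Its 3 RUNX1 sites after AI-10-49 lay at the 2 ends of the window and had middling levels, and the nearest DMSO site was 593 kb away or more. The site chr20:32077602-32077829 had 31 fragments, or 0.984 per M reads (0.668 to 1.4). At the other end, chr20:32274214-32274494 had 46 fragments and 1.46 per M reads (1.07 to 1.95), and chr20:32277855-32278171 had 60 and 1.90 (1.45 to 2.45). No H3K27ac region was listed between 32078940 and 32232575 in either condition. CBFA2T2 covers 160 kb in GRCh38.p14 and is followed there by NECAB3, C20orf144, ACTL10 and E2F1, so the second group of sites may lie in any of these genes or between them.

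Acetylation levels at the 2 ends of the CBFA2T2 window had different ratios, but the fold enrichments did not separate the ends. At chr20:32077049-32077741 H3K27ac was 4.0 after AI-10-49 and 3.50 in DMSO, a ratio of 1.14 (0.894 to 1.46), and at chr20:32077893-32078831 it was 3.73 and 4.23, a ratio of 0.882 (0.695 to 1.12). Both intervals included equality. By the authors' fold enrichment both regions were lower, at 11.1 after AI-10-49 and 15.0 in DMSO for the first and 6.92 and 11.1 for the second. The 5 regions at the other end had ratios of 0.438 to 0.673, none with an interval that reached 1, and fold enrichment ratios of 0.485 to 1.05. The lowest was chr20:32251129-32252161, with 1.87 after AI-10-49 and 4.26 in DMSO (0.325 to 0.586). The region that the 2 RUNX1 sites overlapped, chr20:32274395-32279246, had 3.35 and 5.55, a ratio of 0.604 (0.479 to 0.760). The summit of the site chr20:32274214-32274494 lay outside the H3K27ac regions of both lists. In chr20:32254014-32256348, chr20:32261031-32262848 and chr20:32271783-32274182, which held no RUNX1 site, ratios were 0.559, 0.673 and 0.568. The last of these did not keep its direction by the authors' fold enrichment, which was 7.86 after AI-10-49 and 7.51 in DMSO.

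RUNX1T1, also named ETO or MTG8, is the ETO gene of the RUNX1-RUNX1T1 leukemia fusion. Its 250 kb window had no H3K27ac region and no RUNX1 site in any list. The nearest H3K27ac region lay 367 kb from the window in each condition, with 21 fragments after AI-10-49 and 25 in DMSO. For RUNX1 the nearest site was 367 kb away after AI-10-49 and 2562 kb away in DMSO. An empty window means that no position passed the authors' threshold, which peaks elsewhere did with as few as 12 (AI-10-49) and 9 (DMSO) H3K27ac fragments, and not that signal was absent.

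Over the 4 windows with peaks, 29 H3K27ac regions of the DMSO list overlapped an AI-10-49 region, and 26 of these had the lower level after AI-10-49, where 64.4% of all such regions did. The interval lay below 1 in 19 of the 29 and above 1 in 0, against 33.0% and 8.95% of all. By the authors' fold enrichment 25 were lower, against 55.6% of all, and 5 of the 29 had another direction than by level. The median ratio was 0.637, against 0.838 over all 47607 such regions. At least 1.5 times lower were 15 of 29 (51.7%, 32.5 to 70.6), where 29.1% of all such regions were. None was at least 1.5 times higher, where 12.8% of all were. By window the medians were 0.721 (CBFB), 0.691 (MYH11), 0.579 (CBFA2T3) and 0.604 (CBFA2T2). The ratio moved with the level of a region over the whole lists, and the windows hold many strong regions, a split that was looked at after the ratios had been seen. Of regions averaging at least 2 fragments per M reads over the 2 lists, the 15 in the windows had a median of 0.608 and all 14691 a median of 0.688 (quartiles 0.561 and 0.838). At 1 to 2 per M reads the medians were 0.540 for 7 and 0.766 for 12394 regions, and below 1 they were 0.740 for 7 and 1.03 for 20522. Regions in the windows that held an AI-10-49 RUNX1 site had a median ratio of 0.606 (10 regions), and those without had 0.673 (19 regions). Over the whole lists these medians were 0.705 (8785 regions) and 0.889 (38822 regions). Split by level, they were 0.877 and 1.05 below 1 per M reads. They were 0.719 and 0.777 at 1 to 2, and 0.688 and 0.687 at 2 or more. Lower H3K27ac summit levels were thus measured in regions of the windows with and without RUNX1, and a link to RUNX1 was not tested.

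**Figure D3:**
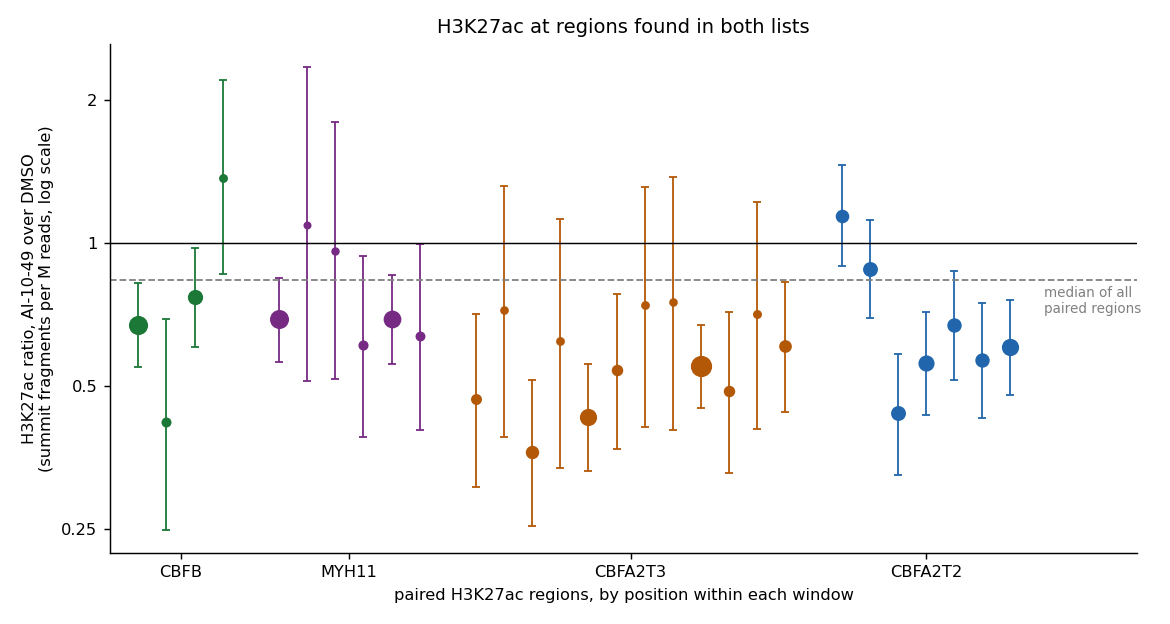
Ratio of H3K27ac summit fragments per M reads, AI-10-49 over DMSO, on a log axis, for the 29 paired regions ordered by position within each window on the x axis. Bars are exact 95% intervals for counting error, larger points are regions with a higher DMSO level, the solid line is 1 and the dashed line is the median of all paired regions, 0.838. All 12 CBFA2T3 points lie below 1, 5 of them with intervals that reach it, and 3 of the 29 points lie above it.

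Acetylated regions found in 1 list only numbered 16 of 60 after AI-10-49 (26.7%, 16.1 to 39.7) and 16 of 45 in DMSO (35.6%, 21.9 to 51.2), against 21.0% and 29.0% of the whole lists, and none reached a −log10 q of 10. Of these, the CBFB region chr16:67143404-67143684 in DMSO had the most fragments, 38 or 1.06 per M reads, above the median of its list (0.812). The highest values were 6.90 for chr16:89011864-89012207 at CBFA2T3 (AI-10-49 only) and 9.91 for chr16:67143404-67143684 at CBFB (DMSO only). Both were picked out after their values were seen.

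Most RUNX1 sites after AI-10-49 lay in acetylated chromatin, in the windows as in the whole list. Of the 15, 14 overlapped an H3K27ac region of AI-10-49 (93.3%, 68.1 to 99.8) and 15 a region of DMSO (100%, 78.2 to 100). In the whole list 86.1% and 89.8% did. By summit, 11 lay inside an AI-10-49 region (73.3%, 44.9 to 92.2) and 14 inside a DMSO region (93.3%, 68.1 to 99.8). In the whole list the shares were 68.4% and 76.2%. Each interval includes the share of the whole list. The exception by overlap was the weakest CBFA2T3 site, chr16:89007920-89008238, whose position was acetylated in the DMSO list alone.

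Most of the wide acetylated regions of DMSO in the windows appeared as several shorter regions after AI-10-49, and RUNX1 sites lay over some of the breaks. Of 11 DMSO regions of at least 2 kb in the windows, 8 overlapped 2 or more AI-10-49 regions (72.7%, 39.0 to 94.0), against 43.3% of all such regions. Of 7 AI-10-49 regions of at least 2 kb, 0 overlapped 2 or more DMSO regions (0 to 41.0%), against 26.1% of all. Both intervals include the share of the whole list. For H3K27ac the smaller of the ChIP and control libraries, which limits calling, was smaller for AI-10-49 by a factor of 0.812. This moves with the breaks, and its part was not tested. Among the 15 RUNX1 sites, 5 spanned 2 AI-10-49 regions (33.3%, 11.8 to 61.6), against 11.5% of the whole list, and 0 spanned 2 DMSO regions, against 9.99%. These measures were chosen after the regions had been seen.

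The 5 breaks were narrow and lay at or near the RUNX1 summits. Each site was picked for overlapping the regions on both sides, so its break lies within the site by construction. The closeness to the summit is in part fixed by this, here and in the whole list. At CBFB the break was 135 bp long, at chr16:67062957-67063091, and the RUNX1 summit lay 12 bp from it. The flanking AI-10-49 regions held 164 and 115 fragments at their summits, and in DMSO a single region, chr16:67062132-67064365, covered the place. At MYH11 the break was 53 bp long, at chr16:15766828-15766880, 22 bp from the RUNX1 summit, between summits of 88 and 167 fragments. At CBFA2T3 breaks of 155, 54 and 118 bp lay under the sites at 89024523, 89043336 and 89070329. The RUNX1 summit was inside the first and the second of these and 22 bp from the third. In the whole list, 1189 RUNX1 sites spanned a break, with a median length of 119 bp. The summit was inside the break in 65.9% of these and in 2 of the 5 sites here (40%), and the median distance was 0 bp over the list and 12 bp here. Within 25 bp of the break, a limit chosen after the distances had been seen, lay 79.7% of the list and all 5 sites here.

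**Figure D4:**
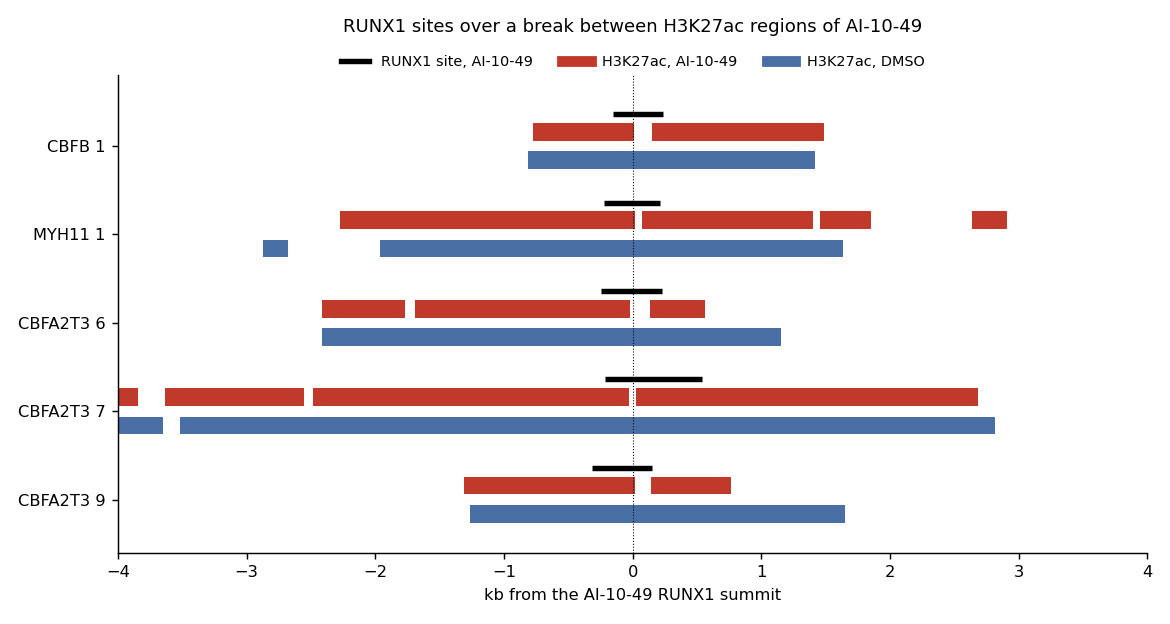
H3K27ac regions around the 5 RUNX1 sites that span a break, by distance in kb from the AI-10-49 RUNX1 summit (x axis), with the sites numbered as in the plot of RUNX1 levels by site. Black bars are the RUNX1 sites, and for each site the AI-10-49 regions are drawn above the DMSO regions. In each row 1 DMSO region spans the place where the AI-10-49 list has a break of 53 to 155 bp.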

How the data were processed

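Per the submitters' processing notes, MACS2 2.1.0, Bowtie2 2.1.0, SAMtools 1.3, Picard 1.96 and CASAVA 1.4 were used, and the build was hg19; no roles are listed. Each ChIP sample has 1 deposited list, and the sources used here do not say which input entered a call. The 2 input samples were not analysed here. The deposited lists give, for each peak, a fold ratio at the summit over local background and −log10 p and q values, all by the authors. The deposited score (10 times −log10 q) was not used.

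Fragment numbers at summits were recovered from fold and −log10 p, which MACS2 derives from the same pileup and background, as the whole numbers that match both (100% of peaks to within 0.003 of −log10 p). The recovery was tested on simulated data and returned 100% of 1493, 1483, 1493 and 1488 numbers. Read totals were derived from the lowest background of each list. They assume a genome of 2700000000 bp and a fragment length equal to the narrowest peak of the list.

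Peaks were shared if they overlapped by 1 bp. A DMSO peak over several AI-10-49 peaks was paired with the one of most fragments. Shares have Clopper-Pearson intervals, levels Poisson intervals and ratios conditional binomial intervals. With 1 library per group there was no test. A region was counted as lower or higher past 1.5-fold. Positions are 1-based.

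The members, windows and measures were chosen with earlier results of these data known. Sites and regions named are all RUNX1 sites, the regions that hold them and the strongest regions per window; others were chosen after their values were seen. The list of ETO partner genes that was planned needs an hg19 annotation and was not analysed here. Python 3.11.15, numpy 2.4.6, pandas 2.3.3, scipy 1.17.1 and matplotlib 3.10.9 were used.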

Additional observations from a re-analysis of the deposited data

How the results depend on the processing

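Of 42 alternative values, 34 differed from the reported value by less than its interval (shares) or by under 1.5 times (counts, ratios), 8 moved and 0 turned round. A single count or share has no direction, so only the ratios could have turned round. With the AI-10-49 RUNX1 list cut to the length of the DMSO list, 6 of its 15 sites were left in the windows, 0 of them at CBFA2T2. The CBFB window then had 1 site after AI-10-49 and 2 in DMSO, where the full lists had 3 and 2. At a −log10 q of at least 10, RUNX1 sites in DMSO fell to 2 (of 5), and H3K27ac regions numbered 29 (of 60) after AI-10-49 and 25 (of 45) in DMSO, since fewer peaks are counted by construction. The share of AI-10-49 RUNX1 sites in AI-10-49 H3K27ac regions (93.3%) was 100% with a margin of 1 kb. The share of DMSO H3K27ac regions shared with AI-10-49 (64.4%) was 40.0% with 50% of both intervals required, 86.7% with a margin of 1 kb and 84.0% at a −log10 q of at least 10. Median ratios stayed between 0.583 and 0.710 for H3K27ac and between 2.70 and 3.06 for RUNX1 under the other pairings, depths and units tried. By the authors' fold enrichment in place of levels, the direction differed in 5 of 29 H3K27ac regions. Breaks over RUNX1 sites stayed at 33.3% with H3K27ac −log10 q of at least 5 or 10; these limits were added after seeing the data, as were the widths of 1 and 3 kb, at which 57.9% and 66.7% of wide DMSO regions were broken (72.7% at 2 kb), against 33.8% and 51.9% of all such regions (43.3% at 2 kb). The cause was not tested except as given. No paired analysis was possible because a single library stands for each condition. The fewest fragments of a listed peak were 12 (AI-10-49) and 11 (DMSO) for RUNX1 and 12 and 9 for H3K27ac, and weaker signal is outside the lists.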
